A study of Danio rerio with 8 samples.

Results

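The Hippo pathway controls gene expression through the coactivators Yap1 and Wwtr1 (also called Taz). When the upstream kinases are inactive, these coactivators enter the nucleus, bind Tead transcription factors and switch on genes such as the secreted CCN matricellular proteins. In the epicardium of the mouse heart, Yap and Taz are known for roles in epicardial proliferation, mesenchymal conversion and coronary vessel formation. The gene set described here holds 10 zebrafish genes: the coactivators yap1 and wwtr1, the Tead genes tead1a, tead1b, tead3a and tead3b, and the common target genes ccn1, ccn2a, ccn2b and amotl2a. The genes were found by symbol, and rows of one symbol that carry an added number were summed, so that 13 rows gave the 10 genes out of 37685 symbols in all. All 10 passed the filter on low counts, as did 16631 symbols in all.

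The RNA came from cells sorted for the nuclear reporter Tg(tcf21:nEGFP), which all libraries carry and which marks epicardial cells, from ventricles of zebrafish at 70 days post-fertilization with similar body size. The 4 mutant libraries carry the cxcr4aum20 allele of the chemokine receptor gene cxcr4a and are labelled as having coronary loss, and the 4 wild-type libraries are labelled as control. The labels do not say how many fish went into a library, so p-values reflect only how these libraries vary, and part of that may be technical. Loss of coronary vessels and other effects of the mutation cannot be told apart.

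Total counts per library were 18891079 to 25513003 for mutants and 19584695 to 28471786 for wild type, and 15512 to 17520 symbols per library had 10 or more counts. The summed level of 6 epicardial markers was 2284 to 4275 CPM (counts scaled to the library total, with TMM factors) in mutants against 1682 to 3696 CPM in wild type. Among them tcf21 had 73.0 to 142 CPM, while aldh1a2, which encodes a retinoic acid synthesis enzyme, had only 2 to 6 counts in any library. Markers of other cell types were present as well. Cardiomyocyte markers, of which 10 of 11 were in the files, summed to 364, 565, 2095 and 1262 CPM in mutant libraries 1 to 4 and to 325 to 642 CPM in wild type. Mural markers, 10 of 10, summed to 2513, 11227, 1208 and 1320 CPM in mutants against 681 to 5919 CPM in wild type. Endothelial markers, 9 of 11, summed to 76.3 to 156 CPM and 67.9 to 225 CPM, with plvapb at 0 in every library. Leukocyte markers, 8 of 8, summed to 65.1 to 1234 CPM in mutants and 448 to 1021 CPM in wild type. Erythrocyte and thrombocyte markers, 8 of 8, summed to 2818, 3700, 7617 and 5134 CPM in mutants. In wild-type libraries 1 to 4 the latter summed to 862, 674, 7837 and 12377 CPM, above the epicardial sum in libraries 3 and 4. None of the 6 marker lists passed a test between genotypes (exact permutation test, 2-sided, adjusted p = 0.571 to 0.857), and none of their genes passed in edgeR at an adjusted p under 0.05. Gene by gene some of the lists did lean. The log2 fold change of mutant over wild type was above 0 in 9 of 9 tested cardiomyocyte markers (median 1.09) and in 10 of 10 mural markers (median 0.46). In each of these 2 lists 3 genes were higher at an unadjusted p under 0.05 (5.09% of all symbols). It was above 0 in 0 of 7 tested endothelial markers (median -0.51) and in 2 of 5 tested epicardial markers (median -0.14), against 50.7% of all symbols tested. In bulk RNA, fewer cells of a type and less RNA per cell cannot be told apart.

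None of the 10 genes passed the test between genotypes. At a Benjamini-Hochberg adjusted p under 0.05 over all symbols, edgeR called 0 of 10, against 0.0481% of all 16631 symbols, of which 0.012% were higher and 0.0361% lower in mutants. At an unadjusted p under 0.05 it also held 0 of 10, against 8.64% of all symbols. DESeq2 called 0 of 10, against 1.75% of the symbols it tested, with 1 of 10 (ccn1) at an unadjusted p under 0.05, and limma voom called 0 of 10. The 1.75% is a share of all symbols with a DESeq2 p-value. DESeq2 gave 5062 symbols no adjusted p, and these could not be called. For 0 of 10 genes did the mutant and wild-type libraries separate without overlap, against 6.3% of all symbols. Mutant over wild type, the log2 fold change was above 0 for 7 genes and below 0 for 3, with a median of 0.24, against 50.7% positive and a median of 0.0097 over all symbols tested. The intervals of these differences are wide, and for ccn1 and ccn2b they include changes of more than 6-fold.

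**Figure D1:**
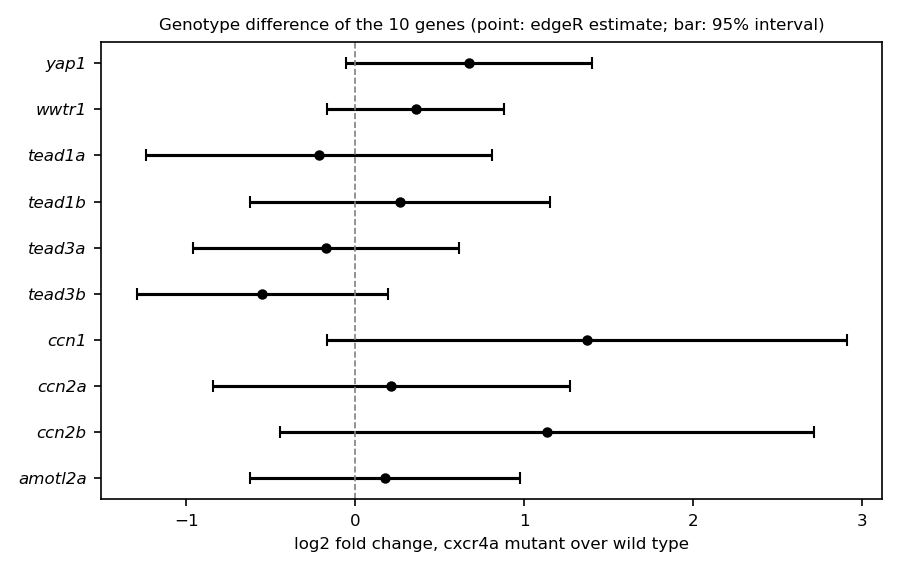
Log2 fold change of cxcr4a mutant over wild type for the 10 genes (x axis; edgeR estimate as a point, 95% interval as a bar; 4 libraries per group). All 10 intervals include 0, and they are widest for ccn1 and ccn2b.

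The coactivator genes differed in how evenly they were expressed. yap1 had 68.4, 85.2, 41.2 and 31.9 CPM in mutant libraries 1 to 4 and 38.8, 42.0, 26.3 and 35.1 CPM in wild-type libraries 1 to 4. Mutants 1 and 2 lay above every wild-type library and mutants 3 and 4 lay within the wild-type range. The fold change was 1.59 (95% interval 0.962 to 2.64; log2 0.67 ± 0.33, SE, n = 4 per group; edgeR adjusted p = 0.606), and without mutant 2 the log2 fold change was 0.41. wwtr1 had 105, 117, 93.9 and 105 CPM in mutants against 95.2, 94.5, 88.7 and 51.0 CPM in wild type. It was the steadiest of the 10 genes among mutants, which spanned 1.25-fold, and its fold change of 1.28 (95% interval 0.891 to 1.84; edgeR adjusted p = 0.734) included the low wild-type library 4. Without that library its log2 fold change went from 0.36 to 0.18.

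The Tead genes encode the DNA-binding partners through which both coactivators act. tead1a had 11.3, 3.83, 4.68 and 8.59 CPM in mutants against 11.9, 5.23, 9.54 and 6.32 CPM in wild type. tead1b had 5.52, 4.81, 6.03 and 3.94 CPM in mutants against 3.48, 3.83, 5.83 and 3.76 CPM in wild type. Both tead1 genes were thinly counted, with 66 counts each in their lowest library, and their groups overlapped. tead3a had 17.9, 13.3, 11.5 and 12.8 CPM in mutants, all within the wild-type values of 7.95, 16.2, 23.7 and 14.8 CPM. tead3b had 10.6, 26.3, 23.1 and 26.3 CPM in mutants against 43.6, 31.2, 27.6 and 24.1 CPM in wild type. For tead3b, mutants 1 and 3 lay below every wild-type library, and the fold change was 0.683 (95% interval 0.408 to 1.14; log2 -0.55 ± 0.33, SE, n = 4 per group; edgeR adjusted p = 0.700). Without mutant 1 its log2 fold change was -0.34. The log2 fold changes of tead1a, tead1b and tead3a were -0.22, 0.26 and -0.18 (edgeR adjusted p = 0.941, 0.904 and 0.938).

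Among the targets, ccn1, an immediate early gene encoding a matricellular protein (formerly cyr61), had the largest fold change of the 10 genes and the widest spread among mutants. It had 1557, 3362, 283 and 421 CPM in mutant libraries 1 to 4 and 379, 570, 774 and 455 CPM in wild-type libraries 1 to 4. Mutants 1 and 2 were above every wild-type library, mutant 3 was below every one, and mutant 4 was within their range. The mutant libraries spanned 11.9-fold against 2.04-fold in wild type. The fold change was 2.58 (95% interval 0.889 to 7.50; log2 1.37 ± 0.69, SE, n = 4 per group; edgeR adjusted p = 0.627). Without mutant 2 the log2 fold change was 0.47, and with voom values it was 0.77.

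The ccn2 genes encode connective tissue growth factor, a secreted protein of the same family, and are duplicated in zebrafish. ccn2b had 204, 103, 21.9 and 32.2 CPM in mutants against 84.5, 30.3, 19.3 and 30.3 CPM in wild type. Mutants 1 and 2 were above every wild-type library and mutants 3 and 4 were within the wild-type range. The fold change was 2.20 (95% interval 0.735 to 6.57; log2 1.14 ± 0.71, SE, n = 4 per group; edgeR adjusted p = 0.714), and the log2 fold change was 0.32 without mutant 1 and 1.75 without wild type 1. ccn2a had 140, 93.5, 38.2 and 34.7 CPM in mutants against 41.1, 50.2, 99.1 and 73.7 CPM in wild type. Its mutant libraries held both its highest and its lowest values, with mutants 3 and 4 below every wild type and mutant 1 above, and its fold change was 1.16 (95% interval 0.558 to 2.41; edgeR adjusted p = 0.945). Its log2 fold change turned from 0.21 to -0.27 without mutant 1.

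amotl2a encodes an angiomotin-like scaffold that holds Yap in the cytoplasm and is itself a target of Yap, so it takes part in negative feedback. It had 364, 476, 210 and 152 CPM in mutants against 335, 264, 194 and 271 CPM in wild type. Mutants 1 and 2 were again the highest libraries and mutant 4 the lowest. The fold change was 1.13 (95% interval 0.649 to 1.96; log2 0.17 ± 0.36, SE, n = 4 per group; edgeR adjusted p = 0.939), and the log2 value turned to -0.14 without mutant 2.

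**Figure D2:**
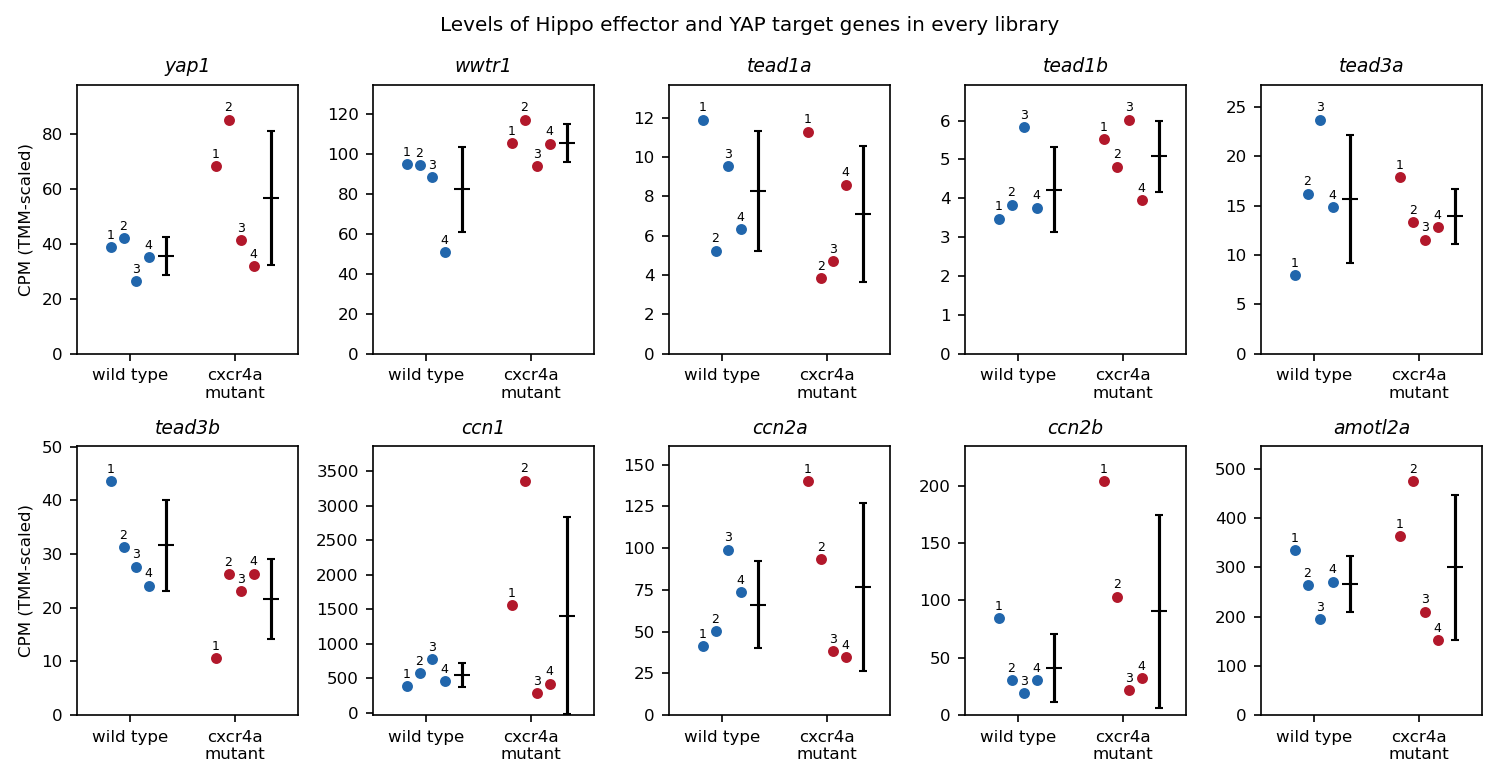
CPM scaled with TMM factors (y axis, linear, a scale per gene) in each library of the 2 genotypes; points are libraries, numbered as in the labels, and the black mark with its bar is mean ± SD (n = 4). For yap1, ccn1, ccn2b and amotl2a mutants 1 and 2 lie above all 4 wild-type libraries, while mutants 3 and 4 lie within or below the wild-type range.

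For the 4 targets the mutant libraries spanned 3.13- to 11.9-fold from lowest to highest, and the wild-type libraries 1.72- to 4.38-fold. The fold changes between genotypes, which are not a range of libraries, were 1.13 to 2.58. Each of the 4 targets had its highest value in mutant 1 or mutant 2 (2 genes each), libraries that held the highest value of 12.6% and 18.7% of all symbols tested. Mutants 1 and 2 held the highest value of 0 of the 4 Tead genes, too few genes to set against those shares. Immediate early genes, such as fos and jun family members that respond within minutes to stress and growth factors, were high in the same libraries. Their 24 genes summed to 13944, 20796, 4839 and 7517 CPM in mutants 1 to 4 and to 6942, 4531, 9902 and 7552 CPM in wild type. Gene by gene, mutant 2 held the highest value of 13 of 23 tested immediate early genes, wild type 3 of 6 and mutant 1 of 2. Mutant 2 also had the highest mural marker sum, 11227 CPM, while mutant 1, at 2513 CPM, was below wild types 3 and 4 (4660 and 5919 CPM). Cardiomyocyte markers were highest in mutants 3 and 4, the libraries with the lowest ccn2a. The part of these levels in the values of the 10 genes was not tested.

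**Figure D3:**
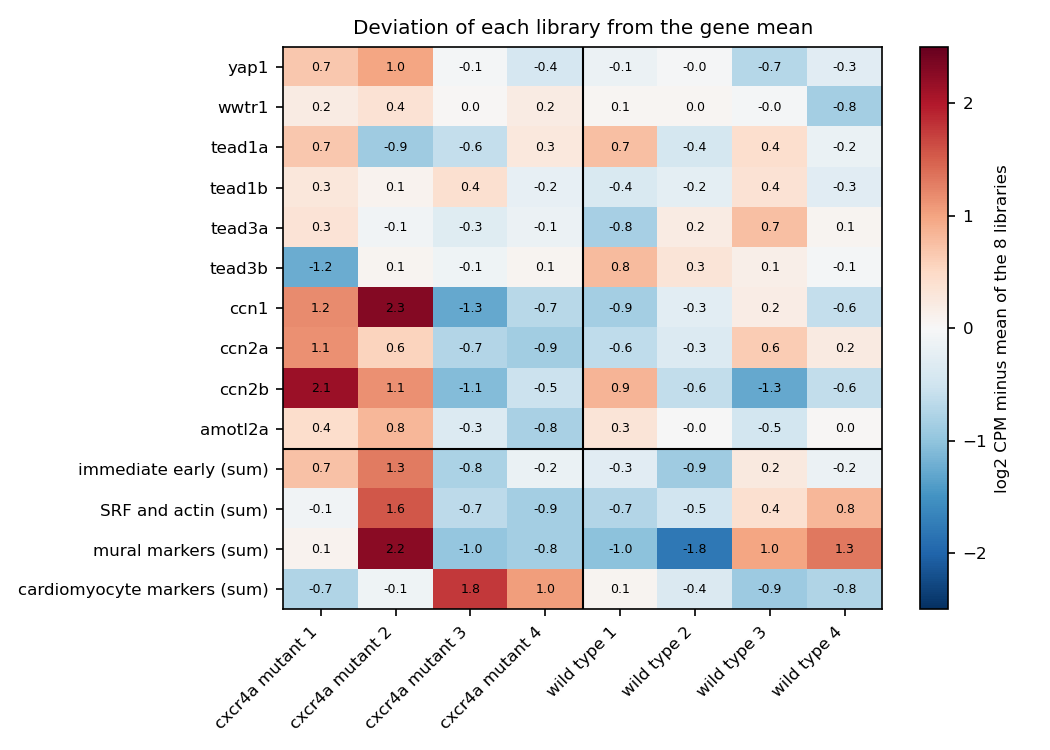
Log2 CPM of the 10 genes, and of 4 summed lists below the horizontal line, minus the mean of the 8 libraries (colour and printed value; columns are libraries, mutants left of the vertical line). ccn1, ccn2b, yap1 and the immediate early sum are highest in mutants 1 and 2, and cardiomyocyte markers in mutants 3 and 4.

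Pairs of the 10 genes were compared across the 8 libraries on log2 CPM. Of 45 pairs, 24 had a positive Pearson r, 5 had an exact permutation p under 0.05 and 0 passed after Benjamini-Hochberg adjustment (lowest adjusted p 0.250). yap1 and its feedback gene amotl2a had the highest value (r = 0.84, exact permutation p = 0.0084; rho = 0.79, exact permutation p = 0.0279; adjusted p = 0.250 and 0.314). Without mutants 1 and 2, the libraries farthest from the yap1 median, r was 0.54. It was 1.00 within the 4 mutants and 0.81 within the 4 wild types. ccn1 and ccn2a had r = 0.77 and rho = 0.83 (exact permutation p = 0.0189 and 0.0154; adjusted p = 0.250 and 0.314), and r was 0.78 without the 2 farthest libraries. Within mutants r was 0.85 and within wild types 0.76. yap1 and ccn1 had r = 0.77 and rho = 0.43 (exact permutation p = 0.0310 and 0.299; adjusted p = 0.279 and 0.904), which rests on mutants 1 and 2, since r was -0.65 without them. Within wild types r was -0.69 and within mutants 0.93. yap1 and ccn2b had r = 0.79 and ccn2b and amotl2a r = 0.78 (exact permutation p = 0.0208 and 0.0222, adjusted p = 0.250 each). Without mutants 1 and 2 these were 0.37 and 0.64. For yap1 and ccn2b r was 0.82 within mutants and 0.61 within wild types. For ccn2b and amotl2a it was 0.80 and 0.92.

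The balance between related genes was compared as the log2 ratio of their counts in each library, which needs no scaling between libraries but is not corrected for gene length. The wwtr1 to yap1 count ratio was 1.54, 1.38, 2.28 and 3.30 in mutants against 2.45, 2.25, 3.38 and 1.45 in wild type. The ccn2b to ccn2a ratio was 1.46, 1.103, 0.574 and 0.929 in mutants against 2.05, 0.603, 0.195 and 0.411 in wild type. Its log2 mean was -0.06 ± 0.56 in mutants against -0.83 ± 1.42 in wild type (SD, n = 4; exact permutation p = 0.371). Across the 4 pairs, which include tead1b to tead1a and tead3b to tead3a, the log2 ratio differed between genotypes by -0.51 to 0.78, with an adjusted exact permutation p of 0.571 in each. The smallest p this design allows is 0.0286.

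Among the 10 genes, yap1, tead1b and ccn2a each stood on 2 rows in the deposited tables, a plain row and one with an added number. tead1b_1 had 0 counts in every library. yap1_1 carried 3.62 to 33.0% of the yap1 counts in mutants against 2.98 to 20.2% in wild type. ccn2a_1 had 10, 4, 69 and 17 counts in mutants 1 to 4 and 283, 216, 380 and 116 counts in wild types 1 to 4. All 4 mutants were below every wild type on this row, as were the mutants for 3.91% of all rows tested singly. Its share of the ccn2a counts was 0.248 to 7.82% in mutants against 7.48 to 36.2% in wild type. With rows tested singly, ccn2a_1 had a log2 fold change of -3.25 ± 0.80 (SE, n = 4 per group) that did not pass (edgeR adjusted p = 0.150; 0.35% of rows passed), and plain ccn2a had 0.43 ± 0.52 (edgeR adjusted p = 0.833). How the counting annotation defines these rows was not stated, so the split between them is uncertain.

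**Figure D4:**
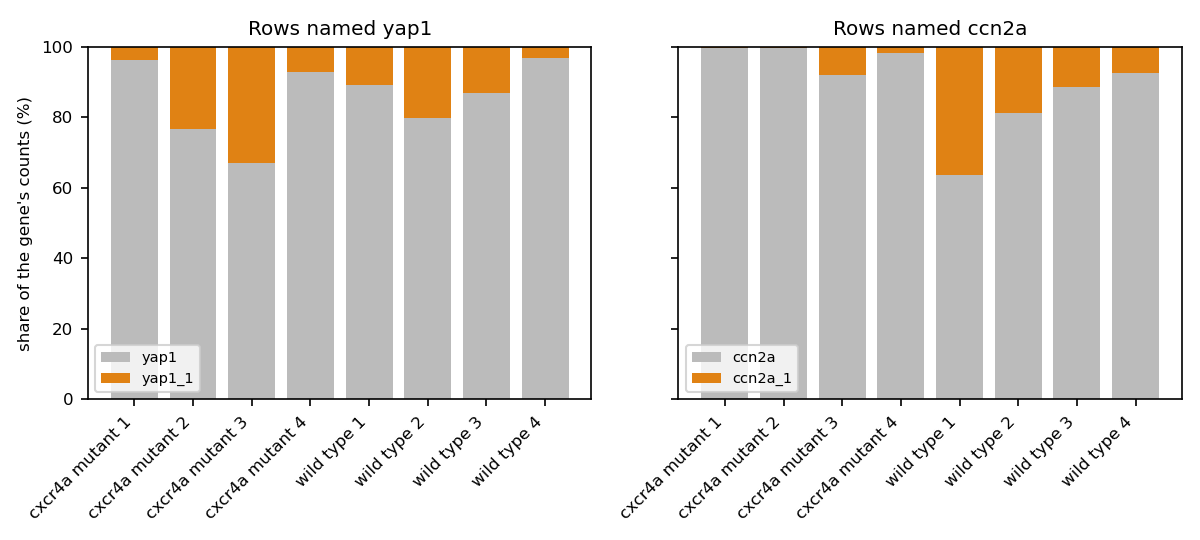
Share of each gene's counts (y axis, percent) on its plain row (grey) and on the row with an added number (orange), in every library, for yap1 and ccn2a. The orange ccn2a share is 0.248 to 7.82% in mutants and 7.48 to 36.2% in wild type, overlapping between mutant 3 and wild type 4, and the yap1 shares overlap as well.

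Other genes of the pathway were read from lists of Hippo components and targets. Of 20 listed Hippo kinases and upstream regulators, 18 were tested, 0 were called by edgeR, and at an unadjusted p under 0.05 it had 1 higher and 1 lower (5.09% and 3.55% of all symbols). In 9 of 18 the log2 fold change was above 0, and the median was 0.0065. taok1a, a kinase that acts upstream of the Hippo kinases, had 20.7, 43.4, 33.1 and 30.7 CPM in mutants against 67.2, 55.7, 71.7 and 72.1 CPM in wild type. All 4 mutants were below every wild type (2.82% of all symbols). Its log2 fold change of -1.06 ± 0.25 (SE, n = 4 per group) did not pass in edgeR (adjusted p = 0.237) and passed in DESeq2 (adjusted p = 0.0107). DESeq2 called 1 gene of this list, against 1.75% of the symbols it tested. stk3, the zebrafish gene for the Hippo kinase Mst2, had 21.2, 15.7, 22.3 and 28.4 CPM in mutants against 7.90, 11.2, 15.7 and 9.17 CPM in wild type. It stood at a log2 fold change of 0.99 ± 0.31 (SE, 4 libraries per group; edgeR adjusted p = 0.385), with 3 of 4 mutants above every wild type. lats2, whose kinase phosphorylates Yap and which is also a Yap target, was at 53.6 ± 3.11 CPM in mutants against 40.2 ± 10.7 CPM in wild type (SD, n = 4; edgeR adjusted p = 0.662). Its plain row had 467 to 733 counts in mutants against 1 to 220 in wild type, and lats2_1 had 259 to 924 and 658 to 1047 counts. With rows tested singly, plain lats2 had a log2 fold change of 3.02 that did not pass (edgeR adjusted p = 0.428). As for ccn2a, the split between rows is uncertain.

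Of 13 cofactor genes of Yap and Tead, 9 were tested, 0 were called by edgeR and 0 had an unadjusted p under 0.05; 4 were positive, with a median of -0.07, and DESeq2 called 0. amotl2b, the duplicate of amotl2a, had 146, 202, 84.9 and 59.7 CPM in mutants against 105, 72.3, 33.2 and 88.8 CPM in wild type. As for amotl2a, mutants 1 and 2 were above every wild type, and its log2 fold change was 0.72 ± 0.44 (SE, 4 libraries per group; edgeR adjusted p = 0.707). Without mutant 2 the latter was 0.37, and without wild type 3 it was 0.47. amot, the founding angiomotin, was at 42.0 ± 17.7 and 55.5 ± 24.9 CPM, and vgll4a, which encodes a vestigial-like protein that competes with Yap for Tead, at 3.00 ± 1.43 and 4.40 ± 1.58 CPM (mutants and wild type, SD, n = 4; edgeR adjusted p = 0.851 and 0.839).

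Genes of a human Yap and Taz signature, taken as their zebrafish counterparts and without the 10 genes, leaned to higher values in mutants without passing. Of 24 listed, 19 were tested and 0 were called by edgeR or DESeq2. lats2 is counted both here and among the Hippo kinases, and some zebrafish duplicates are counted as separate genes. At an unadjusted p under 0.05 edgeR had 3 higher and 0 lower (5.09% and 3.55% of all symbols). The log2 fold change was above 0 in 18 of 19 (94.7%) and its median was 0.39, against 50.7% and 0.0097 over all symbols. Without mutant 2 the median was 0.19. Between genotypes, cardiomyocyte and mural markers leaned the same way (9 of 9 and 10 of 10 above 0). By library the order differed for cardiomyocyte markers, which summed to 364, 565, 2095 and 1262 CPM in mutants 1 to 4. The listed signature genes summed to 2953, 3538, 2227 and 2190 CPM there, and mural markers to 2513, 11227, 1208 and 1320 CPM. The part of these markers in the signature values was not tested. nuak2, which encodes an AMPK-related kinase, had 126, 78.9, 66.9 and 58.1 CPM in mutants against 51.0, 36.6, 29.0 and 49.8 CPM in wild type. All 4 mutants were above every wild type (3.48% of all symbols), with a log2 fold change of 0.99 ± 0.30 (SE, n = 4 per group; edgeR adjusted p = 0.368). ccdc80, which encodes a matrix-associated protein, was at 129 ± 25.2 CPM in mutants against 83.6 ± 23.5 CPM in wild type (SD, n = 4; edgeR adjusted p = 0.533). myof, which acts in membrane repair, stood at 64.0 ± 9.36 and 35.0 ± 18.5 CPM (edgeR adjusted p = 0.557). For ccdc80 and myof, 3 of 4 mutants were above every wild type. ankrd1a, a well known Yap target in mammals, had 0 counts in every library, and ankrd1b did not pass the filter. Within this list, too, mutants 1 and 2 held most of the highest values, 6 and 8 of 19.

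**Figure D5:**
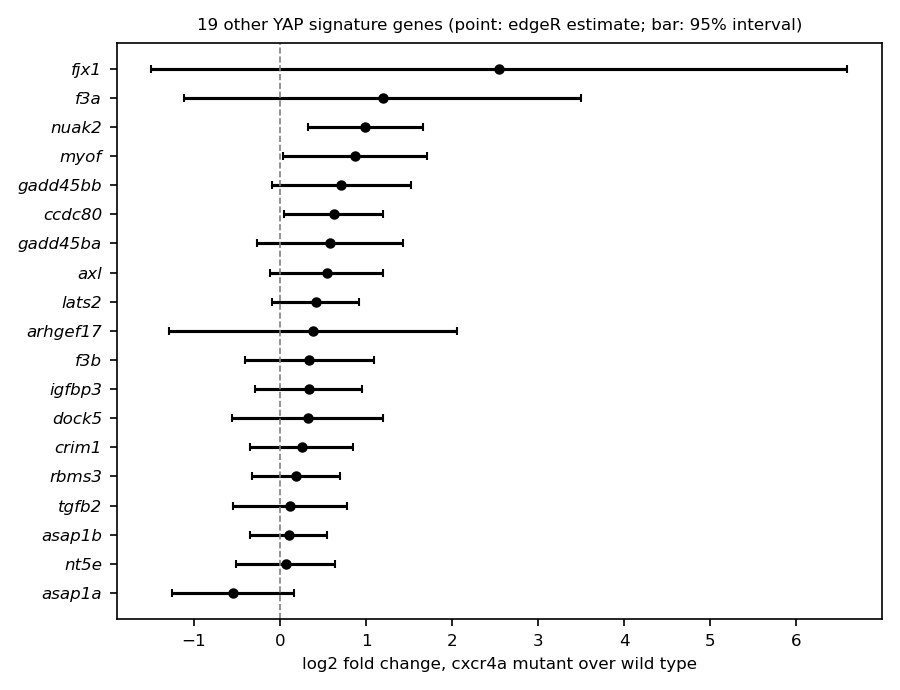
Log2 fold change of cxcr4a mutant over wild type (x axis; edgeR estimate as a point, 95% interval as a bar; 4 libraries per group) for the 19 tested signature genes other than the 10. asap1a is the single gene below 0, and 3 intervals, those of nuak2, myof and ccdc80, lie above 0 before adjustment.

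The remaining CCN genes were mostly low. Of 7 listed, 3 were tested, 0 were called by edgeR or DESeq2 and 1 was higher at an unadjusted p under 0.05 (5.09% of all symbols). ccn5, in mammals a family member without the C-terminal domain of the others, had 29.4, 6.50, 3.86 and 3.98 CPM in mutants against 4.06, 1.39, 0.718 and 0 CPM in wild type (log2 fold change 2.83 ± 1.19, SE, n = 4 per group; edgeR adjusted p = 0.543). Without mutant 1 its log2 fold change was 1.61. ccn1l2, a ccn1-like gene, had 1.62, 89.1, 0.434 and 4.08 CPM in mutants against 8.53, 5.36, 61.0 and 44.2 CPM in wild type. It was high in mutant 2 and in wild types 3 and 4, the 3 libraries with the highest mural marker sums (11227, 4660 and 5919 CPM), whose part in this was not tested. ccn4b, another secreted family member, stood at 62.6 ± 23.9 CPM in mutants against 70.1 ± 20.7 CPM in wild type (SD, n = 4; edgeR adjusted p = 0.944).

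Genes of the actin and serum response factor (SRF) programme share targets with Yap. Of 23 listed, 22 were tested and 0 were called by edgeR. At an unadjusted p under 0.05 it had 2 higher and 1 lower (5.09% and 3.55% of all symbols). DESeq2 called 2, against 1.75% of the symbols it tested. The log2 fold change was above 0 in 15 of 22, with a median of 0.15 (50.7% and 0.0097 over all symbols). The median turned to -0.07 without mutant 2. mrtfbb, which encodes an SRF coactivator, had 87.8, 149, 39.8 and 51.0 CPM in mutants against 29.9, 21.8, 31.4 and 29.2 CPM in wild type. All 4 mutants were above every wild type (3.48% of all symbols), with a log2 fold change of 1.55 ± 0.39 (SE, n = 4 per group; edgeR adjusted p = 0.272, DESeq2 adjusted p = 0.0223). flna, which encodes the actin crosslinker filamin A, had 1.00, 0.174, 4.21 and 5.03 CPM in mutants against 20.9, 26.1, 89.7 and 82.0 CPM in wild type. All 4 mutants were below every wild type (2.82% of all symbols), with a log2 fold change of -4.37 ± 0.92 (SE, n = 4 per group; edgeR adjusted p = 0.156, DESeq2 adjusted p = 2.9e-05). The flna counts lay mostly on flna_1, with 18, 0, 94 and 139 counts in mutants against 395, 596, 2990 and 1723 in wild type, so they carry the same uncertainty between rows. vclb, which encodes a vinculin of focal adhesions, stood at 294 ± 237 and 112 ± 64.2 CPM (edgeR adjusted p = 0.543), highest in mutants 2 and 1.

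Of 24 immediate early genes, 23 were tested and 0 were called by edgeR or DESeq2. At an unadjusted p under 0.05, 1 was higher (5.09% of all symbols). The log2 fold change was above 0 in 15 of 23, with a median of 0.33. The median was 0.010 without mutant 2 and 0.52 without mutant 3. socs3a, a feedback inhibitor of cytokine signalling, had 1432, 1401, 295 and 417 CPM in mutants against 479, 286, 423 and 341 CPM in wild type (edgeR adjusted p = 0.533). As for ccn1, mutants 1 and 2 were above every wild type, while mutants 3 and 4 were within the wild-type range of socs3a. junbb, an AP-1 subunit gene, had 2778, 4488, 780 and 1415 CPM in mutants against 976, 703, 1674 and 1408 CPM in wild type (edgeR adjusted p = 0.639). klf6a, which encodes a zinc finger factor, stood at 445 ± 86.0 and 321 ± 33.6 CPM (SD, n = 4; edgeR adjusted p = 0.578).

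The symbols most like yap1 and ccn1 over the 8 libraries were sought among 10002 symbols with a mean log2 CPM of 3 or more. For yap1 they were mob2a (Pearson r = 0.99), which encodes a kinase-binding protein of the Mob family, deptor (0.98), an mTOR inhibitor gene, and zbtb16a (0.98), a zinc finger repressor gene. All 3 were highest in mutants 1 and 2, with deptor at 432 and 524 CPM there and at 95.5 to 225 CPM in the other libraries. For ccn1 they were rbpja, the transcription factor gene of the Notch pathway, mef2aa and foxc1b (each r = 0.96), and foxc1b had 70.0 and 98.5 CPM in mutants 1 and 2 and 26.5 to 50.8 CPM elsewhere. These are the highest of many values, with 40 and 21 symbols within 0.05 of the highest r, and they describe these libraries without a test.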

How the data were processed

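RNA of cells sorted by the tcf21 reporter was turned into libraries with SMART-Seq v4 amplification and Nextera XT, per the labels' protocols. The authors deposited raw, whole-number counts for each gene symbol; cutadapt 5.2, STAR 2.7.11a, HTSeq and GRCz11 are named in the submitters' processing notes, without parameters or an annotation release. Reads were amplified without molecular identifiers, so counts are not numbers of molecules.

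Rows of one symbol with an added number (16024 rows, 6260 symbols) were summed. Genotypes were compared over all 8 libraries by the 2-sided quasi-likelihood F-test of edgeR 4.0.16 (R 4.3.3) after filterByExpr and TMM scaling, with no other term; adjusted p-values are Benjamini-Hochberg over 16631 symbols. Standard errors and 95% intervals come from the F statistic. Levels are TMM-scaled CPM; log2 CPM uses a prior count of 2. Ratios and marker sums were tested by exact permutation, 2-sided, over 70 assignments, correlations over all pairings. Alternatives used DESeq2 1.42.0, limma 3.58.1 voom, other scaling and filters, single rows, no mitochondrial genes, a replicate block and each library left out.

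The genes and lists were chosen with earlier results of these data known. Named genes are the 10, the 3 of each of the 6 pathway lists with the smallest p, and the 3 symbols most like yap1 and ccn1 each (those for ccn2a are not reported here); single genes named beside a count or as a marker (asap1a, ankrd1a, ankrd1b, aldh1a2, plvapb) were chosen after their values were seen. No libraries agreed within sampling noise. No sequences are shown.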

Additional observations from a re-analysis of the deposited data

Results flagged for a closer look

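A library standing far from the other 3 of its group was found in 9 of 94 group checks, where chance flags about 1 in 20 groups of independent, normally distributed values. Among the 10 genes, wwtr1 was at 51.0 CPM in wild type 4 against 88.7 to 95.2 CPM in the other wild types. tead1b was at 5.83 CPM in wild type 3 against 3.48 to 3.83 CPM, and ccn2b at 84.5 CPM in wild type 1 against 19.3 to 30.3 CPM. The log2 ratio of tead3b to tead3a counts was -0.75 in mutant 1 against 0.98 to 1.04 in the other mutants.

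Of the other genes, ccn1l2 was at 89.1 CPM in mutant 2 against 0.434 to 4.08 CPM in the other mutants, and ccn5 at 29.4 CPM in mutant 1 against 3.86 to 6.50 CPM. In mutant 2 the SRF and actin genes summed to 13371 CPM against 2509 to 4306 CPM, and the mural markers to 11227 CPM against 1208 to 2513 CPM, 2 lists that share acta2 and tagln. Endothelial markers summed to 67.9 CPM in wild type 4 against 201 to 225 CPM in the other wild types.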

How the results depend on the processing

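The 10 genes stayed uncalled under all 17 alternatives, and 6 of them kept their direction throughout. Over all symbols, 8 were called by edgeR with rows summed, 63 with rows as deposited, 458 by DESeq2, 0 by voom, 0 with the replicate number as a block, and 0 to 9 when a library was left out (0 without mutant 1). DESeq2 called 3 list genes against 0 in edgeR. With a library left out, log2 fold changes ran from -0.55 to 0.0095 for tead1a, -0.40 to 0.095 for tead3a, -0.27 to 0.48 for ccn2a, -0.14 to 0.40 for amotl2a, -0.36 to 0.073 for ccn4b and -3.86 to 0.29 for ccn1l2. They ran from 0.47 to 1.71 for ccn1 and 0.32 to 1.75 for ccn2b without changing sign. The list medians ran from -0.03 to 0.13 for Hippo kinases and upstream regulators, -0.29 to 0.17 for cofactors, 0.19 to 0.50 for the Yap signature, -0.07 to 0.29 for SRF and actin genes and 0.010 to 0.52 for immediate early genes. For the other CCN genes the median was -0.16 with all 8 libraries and 0.037 to 1.39 with a library left out. Each list median, here and above, was taken over the list genes that passed the filter in that fit. The genes behind a median can therefore differ between fits. Without wild type 1 the median of the other CCN genes was 0.80, while ccn5, ccn4b and ccn1l2 stood at 3.94, -0.07 and -0.66. The r of yap1 and ccn1 was -0.65 without mutants 1 and 2. The mutant minus wild-type difference in summed CPM ran from -1425 to 1914 for mural, -336 to 54.2 for leukocyte and -2208 to 1693 for erythrocyte and thrombocyte markers. It kept its sign for epicardial (506 to 1178), cardiomyocyte (279 to 856) and endothelial markers (-91.2 to -38.9). A large part of the epicardial sum was hapln1a, at 3281, 1258, 2146 and 2697 CPM in mutants and 2360, 953, 1682 and 865 CPM in wild type. Gene by gene, 2 of 5 tested epicardial markers had a log2 fold change above 0 (median -0.14). For endothelial markers the unadjusted exact permutation p ran from 0.0286 to 0.400. It was lowest without wild type 4, where every mutant was below every remaining wild type. The cause of these shifts was not tested beyond the library left out, and list medians also depend on which genes passed the filter.

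Same-numbered libraries did not deviate together (r -0.08 to 0.08, 0 of 4 pairs over 0.1; 2 of 4 mutants correlated best with their own number), so the numbers were not taken as pairs. With the replicate block the log2 fold changes were 0.79 for ccn1, 0.83 for ccn2b and 0.59 for yap1, none called. The lowest count of any of the 10 genes in a library was 66 (tead1a and tead1b), while standard errors were largest for ccn2b and ccn1 (0.71 and 0.69 on the log2 scale), with at least 506 and 6529 counts.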
